A study of Mus musculus with 10 samples.

Results

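The homeostatic microglia genes described here are P2ry12, P2ry13, Tmem119, Cx3cr1, Siglech, Gpr34, Selplg, Csf1r and Sall1. Each was taken from the probe sets annotated to that gene symbol and no other, and of several such probe sets the brightest on average over all arrays was kept. All 9 genes were found among the 18193 genes measured. The study asked how a surplus of Hsp72, a stress-inducible chaperone, bears on the astrocyte response to stroke. Total RNA of a brain hemisphere was hybridised to Affymetrix arrays 24 h after surgery in male mice. Hsp72Tg mice, which overexpress Hsp72, gave 3 arrays after middle cerebral artery occlusion (MCAO, an artery block that models stroke) and 2 after sham surgery. Wild-type (WT) mice gave 3 arrays after MCAO and 2 after sham surgery. MCAO arrays hold the ischemic hemisphere and sham arrays the hemisphere of the same side. The labels do not state the promoter, species or construct of the transgene, nor the age and strain of the mice. No label names the animal behind each array, so p-values measure the spread between these samples. Samples are named by group and replicate number.

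Microglia are the resident macrophages of the brain. At rest they express a set of surface receptors with which they sense ADP and other nucleotides, lipids, chemokines and growth factors. Some of these genes, though not all, are widely used to tell microglia from macrophages that enter from blood. When microglia leave that state, in injury or neurodegeneration, transcripts of several of these receptors are known to decline while lysosomal, phagocytic and inflammatory genes increase. Csf1r, the receptor for Csf1 and Il34, is needed for microglial survival, and Sall1 is a zinc finger transcription factor of microglial identity.

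P2ry12 and P2ry13, the pair of ADP receptors, are next to each other on chromosome 3, with 0 annotated genes wholly between them. Tmem119 and Selplg share chromosome 5, with 2 genes between them. Promoter sequences from RefSeq (assembly GRCm38.p6, 250 bases before the transcript start) were matched for 5 of the 9 genes, with 7 entries because Sall1 has several. They are shown for the neighbouring receptors, whose values are set beside each other below, and for Cx3cr1, whose values differ from theirs. The P2ry12 window is chr3:59262986-59263235, the P2ry13 window chr3:59210883-59211132 and the Cx3cr1 window chr9:120068297-120068546, all on the minus strand. Capitals mark GAGGAAG or AGGAAGT on either strand, which hold the GGAA core bound by ETS factors such as PU.1, the macrophage regulator made from Spi1.
P2ry12: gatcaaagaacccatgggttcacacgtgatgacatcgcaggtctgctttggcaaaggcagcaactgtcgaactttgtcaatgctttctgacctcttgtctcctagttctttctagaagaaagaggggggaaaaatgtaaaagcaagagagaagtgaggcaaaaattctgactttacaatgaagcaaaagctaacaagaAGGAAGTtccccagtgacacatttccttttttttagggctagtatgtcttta
P2ry13: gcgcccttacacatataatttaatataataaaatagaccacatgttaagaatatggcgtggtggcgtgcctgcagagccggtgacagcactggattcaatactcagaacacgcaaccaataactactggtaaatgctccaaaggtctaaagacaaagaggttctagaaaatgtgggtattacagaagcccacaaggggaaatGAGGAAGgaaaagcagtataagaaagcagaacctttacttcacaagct
Cx3cr1: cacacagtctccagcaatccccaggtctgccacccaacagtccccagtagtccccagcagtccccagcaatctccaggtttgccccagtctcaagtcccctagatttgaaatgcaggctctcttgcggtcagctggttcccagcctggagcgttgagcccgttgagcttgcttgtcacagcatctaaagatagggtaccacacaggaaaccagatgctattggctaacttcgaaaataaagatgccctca
AGGAAGT lies 52 bases before the start of P2ry12 and GAGGAAG 48 bases before that of P2ry13, both on the strand of the gene. Neither was matched in the windows of Cx3cr1 and Siglech, and AGGAAGT was matched in 1 window of Sall1. The GGAA core alone also occurs in the Cx3cr1 window, in small letters, so that core does not set the windows apart. Of 32851 promoter windows of this length, 10.6% hold GAGGAAG, 7.69% hold AGGAAGT and 15.4% hold either. The 2 motifs were picked, with their matches known, out of 10 that were searched on both strands. The 8 others were AGAGGAAG (in 3.67% of windows), GGAAGT (19.7%, inside AGGAAGT), GAGGAAGT (2.44%), AAGAGGAAG (1.32%), CAGACA (17.1%), TATAAA (12.4%), CTATTTTTA (0.454%) and GGGCGG (32.7%). Among the members' windows GGAAGT was matched in P2ry12, Siglech and Sall1, CAGACA in Siglech, GGGCGG in 2 windows of Sall1, and the other 5 in 0 windows. These matches describe letters in the windows and nothing in these arrays measured binding.

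Values are log2 RMA expression values, in which a difference of 1 is a doubling, and array medians lay between 6.67 and 6.73. The Hsp72 gene Hspa1b read 12.05, 13.96 and 13.09 in Hsp72Tg MCAO and 9.12 and 9.16 in Hsp72Tg sham, against 11.85, 12.84 and 12.73 in WT MCAO and 9.38 and 9.48 in WT sham. Its near-identical neighbour Hspa1a read 10.63, 13.23 and 12.11 in Hsp72Tg MCAO and 8.28 and 8.53 in Hsp72Tg sham, against 10.62, 11.57 and 11.27 in WT MCAO and 8.54 and 8.45 in WT sham. Both were high in all 6 MCAO arrays, and neither read higher in both Hsp72Tg sham arrays than in the WT sham arrays, so they do not check the genotype labels. Neuron markers were high, as in brain, with a mean that lay between 12.03 and 12.43 in MCAO arrays and between 12.29 and 12.37 in sham arrays. The sample labelled WT sham 1 also carried cerebellar transcripts, where Gabra6 reached 9.46, while all the remaining arrays lay between 4.15 and 4.49. On the first principal component of all genes, with 50.3% of the variance, the sample labelled Hsp72Tg MCAO 1 lay at -12.87, the other 5 MCAO arrays between 11.70 and 32.30 and the sham arrays between -23.71 and -20.66. Hsp72Tg MCAO 2 lay at the far end, at 32.30. Its highest correlation with another array was 0.990, against 0.995 to 0.997 for the remaining arrays. Results are therefore given with and without WT sham 1 and Hsp72Tg MCAO 1 where they rest on them, and in places without Hsp72Tg MCAO 2.

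P2ry12, the ADP receptor that steers microglial processes toward injury, showed the widest difference of the 9 genes. It read 8.38, 6.45 and 6.48 in Hsp72Tg MCAO and 8.91 and 8.59 in Hsp72Tg sham, and it read 6.47, 7.21 and 6.90 in WT MCAO and 8.17 and 8.92 in WT sham. The 5 other MCAO arrays were thus far below every sham array, while Hsp72Tg MCAO 1 lay between the WT sham arrays. Over both genotypes the difference of P2ry12 was -1.67 (MCAO minus sham, SE 0.37, interval -2.48 to -0.85), or 31.5% of the sham level, with a limma adjusted p of 0.0586 that missed the threshold of 0.05. Among the 18193 genes it ranked 2 by the size of a decline in value. Bulk tissue cannot tell fewer microglia from less P2ry12 RNA in each of them.

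P2ry13, the second ADP receptor of the pair, read 7.37, 5.73 and 6.61 in Hsp72Tg MCAO and 7.64 and 7.23 in Hsp72Tg sham. In WT it read 6.57, 6.89 and 6.87 after MCAO and 7.13 and 7.78 after sham surgery. Hsp72Tg MCAO 1 again lay among the sham arrays, and Hsp72Tg MCAO 2 was the lowest array. The difference over both genotypes was -0.77 (SE 0.28, adjusted p = 0.172). Its direction matched that of its neighbour P2ry12 in every MCAO array when each was set against the sham mean of its own genotype. In Hsp72Tg MCAO 1 the P2ry13 value was only -0.06 on that scale. Gpr34 and Siglech, on other chromosomes, were also below 0 in every MCAO array, so the match was not particular to the neighbours.

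Gpr34, a receptor for lysophosphatidylserine, read 7.37, 5.16 and 5.59 in Hsp72Tg MCAO and 8.01 and 6.75 in Hsp72Tg sham, against 5.69, 5.84 and 5.83 in WT MCAO and 6.59 and 7.50 in WT sham. The 3 WT MCAO arrays were close together, and all 5 MCAO arrays other than Hsp72Tg MCAO 1 were below the lowest sham array. Over both genotypes the difference was -1.30 (SE 0.42, interval -2.23 to -0.37, adjusted p = 0.136), or 40.7% of the sham level. It ranked 5 among all genes by the size of a decline in value. In 3 of the MCAO arrays and 0 of the sham arrays Gpr34 was under the lower quartile of all genes, where a log2 difference can understate the change.

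Selplg, the P-selectin glycoprotein ligand, read 8.68, 7.07 and 7.92 in Hsp72Tg MCAO and 8.60 and 8.61 in Hsp72Tg sham. WT arrays read 7.81, 8.12 and 8.14 after MCAO and 8.49 and 8.85 after sham surgery. The sham arrays were tightly grouped and again 5 MCAO arrays were below all of them. The difference over both genotypes was -0.68 (SE 0.25, adjusted p = 0.185), or 62.3% of the sham level.

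Tmem119, a transmembrane protein used to mark resident microglia, read 8.43, 7.53 and 7.83 in Hsp72Tg MCAO and 8.16 and 8.12 in Hsp72Tg sham, against 7.72, 7.99 and 7.98 in WT MCAO and 8.04 and 8.41 in WT sham. Its differences were small, and Hsp72Tg MCAO 1 was the highest of the 10 arrays. Over both genotypes the difference was -0.27 (SE 0.16, adjusted p = 0.402). Siglech, a sialic acid-binding lectin, read 6.57, 6.46 and 5.90 in Hsp72Tg MCAO and 6.92 and 6.43 in Hsp72Tg sham, against 6.11, 6.38 and 6.03 in WT MCAO and 6.25 and 6.78 in WT sham. MCAO and sham arrays of Siglech overlapped in both genotypes, with a difference of -0.35 (SE 0.17, adjusted p = 0.290). Sall1 read 6.97, 6.54 and 7.01 in Hsp72Tg MCAO and 7.46 and 7.03 in Hsp72Tg sham, and 7.20, 7.66 and 6.84 in WT MCAO and 6.69 and 7.35 in WT sham. No common direction was seen, and the difference was -0.10 (SE 0.19, interval -0.52 to 0.33). A second probe set of Sall1 gave 0.01.

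Cx3cr1, the receptor for the neuronal chemokine Cx3cl1, did not share the pattern of P2ry12. It read 9.37, 7.91 and 9.39 in Hsp72Tg MCAO and 9.22 and 9.19 in Hsp72Tg sham, against 9.41, 9.44 and 9.26 in WT MCAO and 8.71 and 9.04 in WT sham. The 3 WT MCAO arrays were above both WT sham arrays, and Hsp72Tg MCAO 2 stood alone at the low end. Over both genotypes the difference was 0.09 (SE 0.26, interval -0.49 to 0.67, adjusted p = 0.887). Without Hsp72Tg MCAO 2 it was 0.34 (interval 0.14 to 0.53, adjusted p = 0.0961), where 0.967% of all genes passed as higher. Leaving out the array with the lowest Cx3cr1 value raises the MCAO mean, so this interval is not independent of that choice. The second probe set of Cx3cr1 was also low in Hsp72Tg MCAO 2. It read 6.04 there and between 6.81 and 7.72 in the other MCAO arrays.

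Csf1r read 11.24, 11.34 and 11.43 in Hsp72Tg MCAO and 11.13 and 11.28 in Hsp72Tg sham, against 11.36, 11.43 and 11.37 in WT MCAO and 10.98 and 11.48 in WT sham. The MCAO arrays, Hsp72Tg MCAO 1 and 2 among them, all lay within the sham range. The difference was 0.15 (SE 0.10, interval -0.08 to 0.37, adjusted p = 0.463). Its 3 probe sets gave differences between 0.02 and 0.15.

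**Figure D1:**
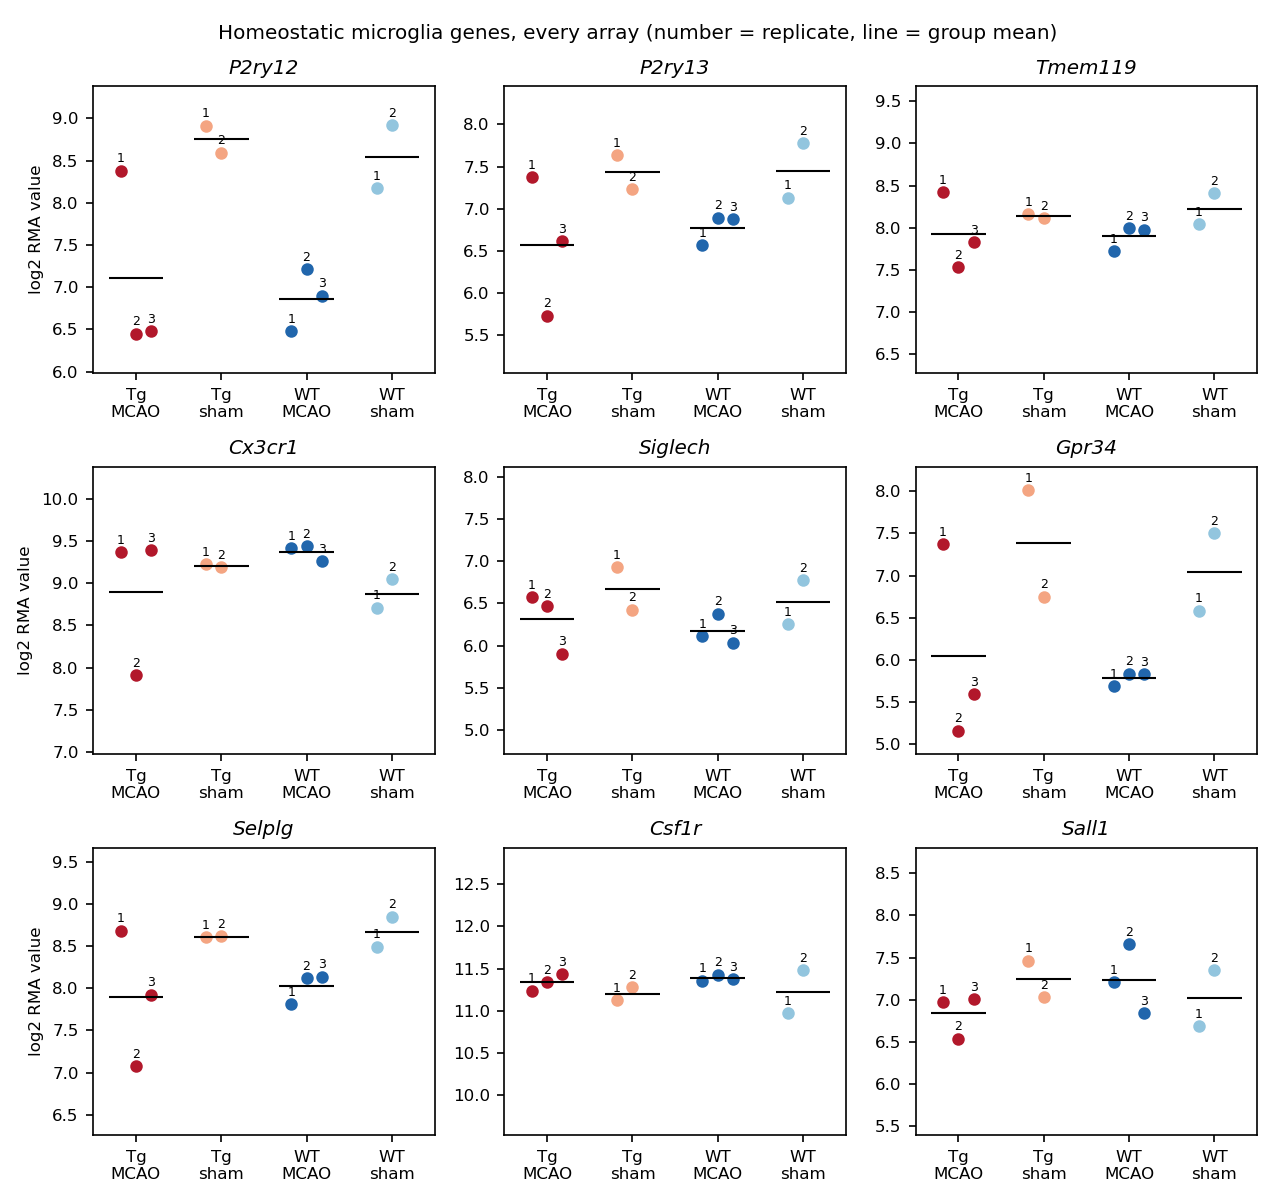
Log2 RMA values of the 9 genes (vertical axis, the same span of values in each panel) in Hsp72Tg MCAO, Hsp72Tg sham, WT MCAO and WT sham (Tg stands for Hsp72Tg), 1 point per array with its replicate number and a line at the group mean. P2ry12 in Hsp72Tg MCAO 1 sits at 8.38, against 6.45 to 7.21 in the other 5 MCAO arrays, while Csf1r stays between 10.98 and 11.48 in all arrays.

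The 9 genes together had a median difference of -0.35 after MCAO over both genotypes, beside -0.03 for all genes tested, and 7 of 9 were lower in value, beside 57.5% of all genes. With all 10 arrays 0 of 9 passed in limma at an adjusted p under 0.05, where 0.407% of genes passed as lower and 1.06% as higher. P2ry12, Gpr34, P2ry13 and Selplg, 4 of 9, were lower at an unadjusted p under 0.05, as were 10.8% of all genes. MCAO arrays lay wholly below sham arrays for 0 of 9 genes, beside 3.41% of all genes. Hsp72Tg MCAO 1 read above the lowest sham array for all 9, though the share of all genes for which it did so was not counted.

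These counts turned on 1 array, Hsp72Tg MCAO 1. Set against the Hsp72Tg sham mean, the mean of the 9 genes was -0.03 in Hsp72Tg MCAO 1, -1.16 in Hsp72Tg MCAO 2 and -0.72 in Hsp72Tg MCAO 3. Set against the WT sham mean it was -0.58, -0.29 and -0.48 in the 3 WT MCAO arrays. In Hsp72Tg MCAO 1 the genes of activated microglia and macrophages averaged 0.38 above sham, against 0.81 to 1.21 in the other MCAO arrays, so that array was nearer to sham in those genes too. Why it differs was not tested. Hsp72Tg MCAO 2 had the lowest mean of the 9 genes. With Hsp72Tg MCAO 2 left out instead, 0 of 9 passed over both genotypes, beside 0.253% of all genes as lower.

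Without Hsp72Tg MCAO 1, 5 of 9 genes fell over both genotypes, where 6.35% of all genes passed as lower and 6.02% as higher. The log2 differences were -1.98 for P2ry12 (SE 0.18, adjusted p = 0.000158), -1.63 for Gpr34 (SE 0.26, adjusted p = 0.00387), -0.97 for P2ry13 (SE 0.20, adjusted p = 0.0132), -0.88 for Selplg (SE 0.17, adjusted p = 0.0088) and -0.39 for Tmem119 (SE 0.11, adjusted p = 0.0436). The same 5 genes had all 5 remaining MCAO arrays below all 4 sham arrays, as did 7.5% of all genes. Siglech (-0.41, adjusted p = 0.138), Sall1 (-0.13), Cx3cr1 (-0.03) and Csf1r (0.17) did not pass. The array was left out because it lay near the sham arrays, so the calls without it are not independent of that choice. With WT sham 1 left out as well, the same 5 genes passed as lower, beside 2.78% of all genes.

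**Figure D2:**
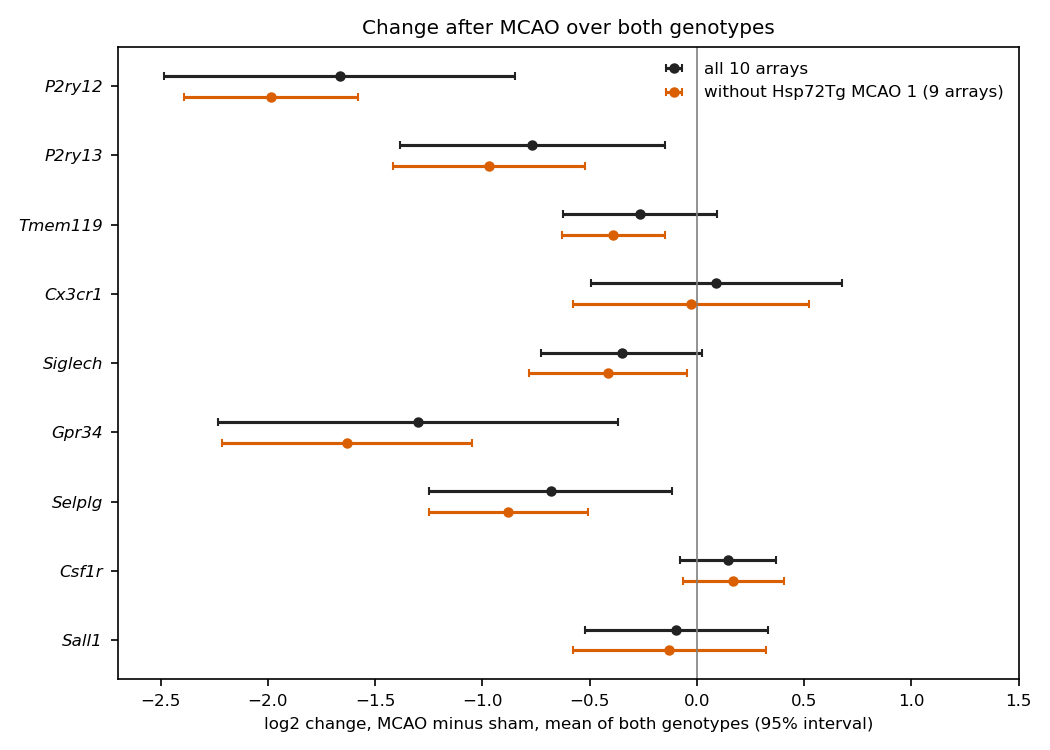
Log2 difference of each gene after MCAO (MCAO minus sham over both genotypes, horizontal axis) with its 95% interval, from all 10 arrays (black) and without Hsp72Tg MCAO 1 (orange). The interval of P2ry12 is -2.48 to -0.85 with all arrays and -2.39 to -1.58 without that array, while Cx3cr1 and Sall1 span 0 in both fits.

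Within WT, which does not hold the array that stood apart, 0 of 9 genes passed in the fit of all groups, beside 0.0055% of all genes as lower. P2ry12 differed by -1.68 (SE 0.52, adjusted p = 0.281), Gpr34 by -1.26 (SE 0.59) and Cx3cr1 by 0.50 (SE 0.37). P2ry12 alone of the 9 had an unadjusted p under 0.05 as lower, as did 4.52% of all genes. P2ry12, P2ry13, Tmem119, Gpr34 and Selplg had every WT MCAO array below both WT sham arrays, as did 22.5% of all genes, and Cx3cr1 had every one above, as did 16.4%. These errors pool the spread of all groups. With WT arrays alone P2ry12 (adjusted p = 0.015), Gpr34 (0.0295) and Selplg (0.0492) fell, beside 1.54% of all genes, and in the fit of all groups without Hsp72Tg MCAO 1 only P2ry12 did (adjusted p = 0.00666, beside 0.583% of all genes). With WT sham 1 out as well that count was again 1, beside 0.11%.

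Within Hsp72Tg 0 of 9 genes passed, beside 0.0055% of all genes as lower. P2ry12 differed by -1.65 (SE 0.52, adjusted p = 0.340), Gpr34 by -1.34 (SE 0.59), P2ry13 by -0.86 (SE 0.39) and Sall1 by -0.41 (SE 0.27). P2ry12 and Gpr34 had an unadjusted p under 0.05, as did 7.29% of all genes, and MCAO arrays lay below both sham arrays for P2ry12 and Sall1, as they did for 12.8% of genes. Without Hsp72Tg MCAO 1, 4 of 9 genes fell, beside 3.11% of all genes, with differences of -2.29 for P2ry12 (adjusted p = 0.00157), -2.00 for Gpr34 (adjusted p = 0.0162), -1.26 for P2ry13 (adjusted p = 0.0359) and -1.11 for Selplg (adjusted p = 0.0287). Those 4 genes also passed with WT sham 1 left out too, beside 1.74%. Weighting arrays by their quality gave 2 of 9 genes lower over both genotypes (P2ry12 and Gpr34, beside 2.3%) and 1 in WT (P2ry12, beside 2.75%), and leaving out dim genes gave P2ry12 over both genotypes, beside 0.682%.

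Hsp72Tg and WT mice were then compared for these genes. The difference of the MCAO changes (Hsp72Tg minus WT) passed for 0 of 9 members and for 0.0% of all genes, and at an unadjusted p under 0.05 for 0 members and 1.75% of genes. It was 0.03 (interval -1.60 to 1.67) for P2ry12, -0.08 (interval -1.94 to 1.78) for Gpr34 and -0.02 (interval -0.47 to 0.42) for Csf1r, so the intervals of P2ry12 and Gpr34 leave room for wide differences. Cx3cr1 had the widest value, -0.81 (interval -1.98 to 0.36), which was -0.32 without Hsp72Tg MCAO 2. Without Hsp72Tg MCAO 1 the median over the 9 genes was -0.59, against -0.07 with all arrays, and P2ry12 was -0.60 (interval -1.42 to 0.21).

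After MCAO, Hsp72Tg minus WT passed for 0 of 9 genes and 0.0% of all genes, and at an unadjusted p under 0.05 for 0 members and 2.68% of genes. The mean of P2ry12 was 7.10 in Hsp72Tg MCAO and 6.86 in WT MCAO, a difference of 0.24 (interval -0.79 to 1.28). Without Hsp72Tg MCAO 1 that difference was -0.40 (interval -0.94 to 0.15), so its sign rests on 1 array. In that fit P2ry13 was at -0.60 (interval -1.21 to -0.0022, adjusted p = 0.565) and Selplg at -0.52 (interval -1.02 to -0.023, adjusted p = 0.549). Both intervals lay below 0, but neither gene passed, as 0 of all genes did. The share of all genes with intervals below 0 in that fit was not counted. The array left out had the highest Hsp72Tg MCAO value of both genes. Leaving it out lowers their Hsp72Tg mean, so these intervals are not independent of that choice. Csf1r had the narrowest interval, -0.33 to 0.23. After sham surgery 0 of 9 genes and 0.0% of all genes passed, and 0 members had an unadjusted p under 0.05 beside 1.56% of genes. Cx3cr1 read higher in both Hsp72Tg sham arrays (9.22 and 9.19) than in both WT sham arrays (8.71 and 9.04), as did 12.8% of all genes in that way, and its difference was 0.33 (interval -0.58 to 1.23).

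**Figure D3:**
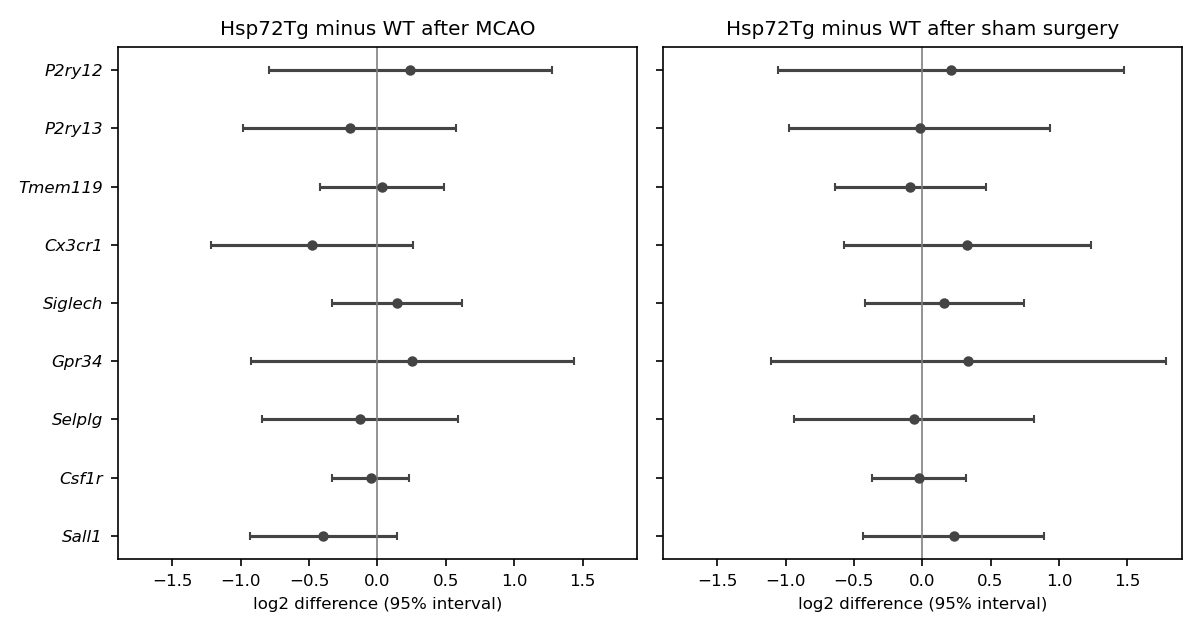
Log2 difference of each gene between Hsp72Tg and WT (Hsp72Tg minus WT, horizontal axis) with its 95% interval, after MCAO (left) and after sham surgery (right), all 10 arrays. All 9 intervals in each panel include 0, and those of Gpr34 are the widest at -0.92 to 1.44 and -1.11 to 1.78.

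The genes differed from each other within arrays. P2ry12 minus Csf1r, a difference of levels whose own size depends on the probes, ran from -4.95 to -2.86 in MCAO arrays and from -2.81 to -2.22 in sham arrays. Hsp72Tg MCAO 1, at -2.86, was next to the lowest sham array, at -2.81. P2ry12 minus Cx3cr1 ran from -2.94 to -0.99 in MCAO arrays and from -0.60 to -0.13 in sham arrays. Gpr34 minus Csf1r (-6.18 to -3.87 in MCAO arrays, -4.53 to -3.12 in sham arrays) and Selplg minus Csf1r (-4.27 to -2.56 against -2.67 to -2.49) overlapped through Hsp72Tg MCAO 1. These pairs were picked after the values were seen, setting members with lower values against members without, and are a description with no test.

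Ligands and partners of these receptors were measured for 9 genes, of which 0 passed over both genotypes. Csf1, a ligand of Csf1r, differed by 0.94 (SE 0.20, adjusted p = 0.0557), and its 4 probe sets gave 0.26 to 0.94. Selp, the P-selectin bound by Selplg, differed by 1.32 (SE 0.43, adjusted p = 0.144), with 0.37 to 1.32 over 3 probe sets. Tyrobp, a signalling adaptor of microglia, differed by 0.68 (SE 0.20, adjusted p = 0.118). Il34, the other ligand of Csf1r, was lower in value at -0.42 (SE 0.19, adjusted p = 0.268), and so was Cx3cl1, the ligand of Cx3cr1, at -0.37 (SE 0.20, adjusted p = 0.341). Regulators of microglial identity passed as higher for 3 of 9 and as lower for 0. Irf8, a transcription factor of macrophages and microglia, rose by 0.63 (SE 0.11, adjusted p = 0.0377). Tgfb1, the growth factor that maintains microglia, rose by 0.95 (SE 0.16, adjusted p = 0.0283) and its receptor Tgfbr2 by 0.72 (SE 0.13, adjusted p = 0.0345), but other probe sets of these genes gave 0.08 for Tgfb1 and down to -0.09 for Tgfbr2.

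Of 18 other microglia genes measured, 4 rose and 0 fell after MCAO over both genotypes. The list's median difference was 0.44, beside -0.03 for all genes, with 13 genes higher in value and 5 lower. The 5 lower in value were Ltc4s (-0.35), Slc2a5 (-0.33), Cd33 (-0.09), Trem2 (-0.02) and Aif1 (-0.003). Itgb2, an integrin chain of leukocytes, rose by 1.02 (SE 0.19, adjusted p = 0.0426), P2ry6, a UDP receptor linked to phagocytosis, by 0.98 (SE 0.20, adjusted p = 0.0478), Fcer1g, an Fc receptor chain, by 0.82 (SE 0.16, adjusted p = 0.0435) and Ptprc, the leukocyte antigen CD45, by 0.89 (SE 0.17, adjusted p = 0.0426) although a second probe set of Ptprc gave 0.08. Among genes of activated microglia and macrophages 5 of 16 rose and 0 fell. Lgals3, which encodes galectin-3, rose by 3.48 (SE 0.46, adjusted p = 0.014), Cd14, a co-receptor for lipopolysaccharide, by 3.36 (SE 0.56, adjusted p = 0.0283), Tlr2, a pattern recognition receptor, by 1.38 (SE 0.20, adjusted p = 0.0216), Cd68, a lysosomal protein, by 1.35 (SE 0.18, adjusted p = 0.0131) and Ctsz, a lysosomal protease, by 0.79 (SE 0.13, adjusted p = 0.0287). Most of these are shared by microglia and blood-derived macrophages. The counts over both genotypes without Hsp72Tg MCAO 1 were 4 higher and 2 lower of 9 ligands and partners, 4 higher and 1 lower of 9 regulators, 7 higher and 1 lower of 18 other microglia genes, and 9 higher and 0 lower of 16 activation genes. The rises with all arrays also depended on single arrays other than that one. Leaving out WT sham 1, WT sham 2, Hsp72Tg sham 1, WT MCAO 1 or WT MCAO 3 left 0 genes of every list passing as higher, and leaving out Hsp72Tg sham 2 or WT MCAO 2 left 2 activation genes and 0 of the other lists. Over all genes 8 to 50 passed as higher in those 7 fits, against 192 with all arrays.

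Markers of other cells that a hemisphere can hold passed in few cases with all arrays. Monocyte markers passed as higher for 1 of 7 (S100a4, a calcium-binding protein, 1.26), with a list mean of 6.83 to 7.60 in MCAO arrays and 6.61 to 6.80 in sham arrays. Border-associated macrophage markers passed for 0 of 8, with Lyve1 at 1.34 (adjusted p = 0.0581, 0.35 to 1.34 over 2 probe sets), Pf4 at 1.01 and F13a1 at 1.04, and a list mean of 6.32 to 6.97 in MCAO arrays and 6.03 to 6.18 in sham arrays. Neutrophil markers passed for 0 of 9, with S100a9 at 2.49 (SE 0.78), S100a8 at 2.38 (SE 0.78) and Mmp8 at 0.59. Their median difference was 0.18, and Camp (0.06), Mpo (0.04), Elane (0.03) and Ltf (-0.11) differed little. Their list mean was 5.78 to 7.37 in MCAO arrays and 5.61 to 6.36 in sham arrays. Lymphocyte markers passed for 0 of 8, with Cd4 at -0.39, Nkg7 at -0.15 and Cd3e at -0.08, and a list mean of 5.83 to 5.98 in MCAO arrays and 5.92 to 6.05 in sham arrays. With Hsp72Tg MCAO 1 left out the passing genes were 3 higher and 1 lower of 7 monocyte markers, 4 higher and 0 lower of 8 border-associated macrophage markers, 3 higher and 0 lower of 9 neutrophil markers, and 0 higher and 1 lower of 8 lymphocyte markers. The part of these cells in the members' values was not tested.

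The median differences of neuron, astrocyte and oligodendrocyte markers were -0.11, 0.02 and 0.09. Neuron markers passed for 0 of 10, with Tubb3 at -0.38, Nefl at -0.30 and Stmn2 at -0.23, and astrocyte markers of normal brain for 0 of 8, with Fgfr3 at 0.29, Aqp4 at 0.27 and Slc4a4 at -0.26. Oligodendrocyte markers passed as lower for 1 of 7, the myelin gene Mog, which fell by 0.58 (SE 0.12, adjusted p = 0.0477). That count was 0 when any sham array, any WT MCAO array or Hsp72Tg MCAO 3 was left out. Endothelial markers passed as higher for 2 of 7, the adhesion gene Pecam1 (mean 7.63 in MCAO arrays and 6.63 in sham arrays, adjusted p = 0.035) and the tight junction gene Cldn5 (9.84 and 9.19, adjusted p = 0.036). Their list median was 0.60, with Cdh5 at 1.13 (adjusted p = 0.0557), while Slco1a4 at -0.79 (adjusted p = 0.194) and Tek at -0.25 were lower in value. Cerebellar markers passed for 0 of 8, with Gabra6 at -1.27, Car8 at -1.09 and Pcp2 at -1.01, and they were high in WT sham 1 (list mean up to 9.68 in sham arrays, 7.64 at most in MCAO arrays). When Hsp72Tg MCAO 1 was left out, the passing genes were 0 higher and 3 lower of 10 neuron markers, 0 of 8 astrocyte markers, 2 higher and 1 lower of 7 oligodendrocyte markers, 4 higher and 1 lower of 7 endothelial markers, and 0 higher and 1 lower of 8 cerebellar markers. All 9 members read lower in WT sham 1 than in WT sham 2, and the share of all genes that did so was not counted. In WT sham 1 the median of all genes was -0.0008 from the WT sham mean, and that of the 9 members -0.26. Whether this relates to the cerebellar transcripts was not tested. Without WT sham 1 P2ry12 differed by -1.85 over both genotypes.

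**Figure D4:**
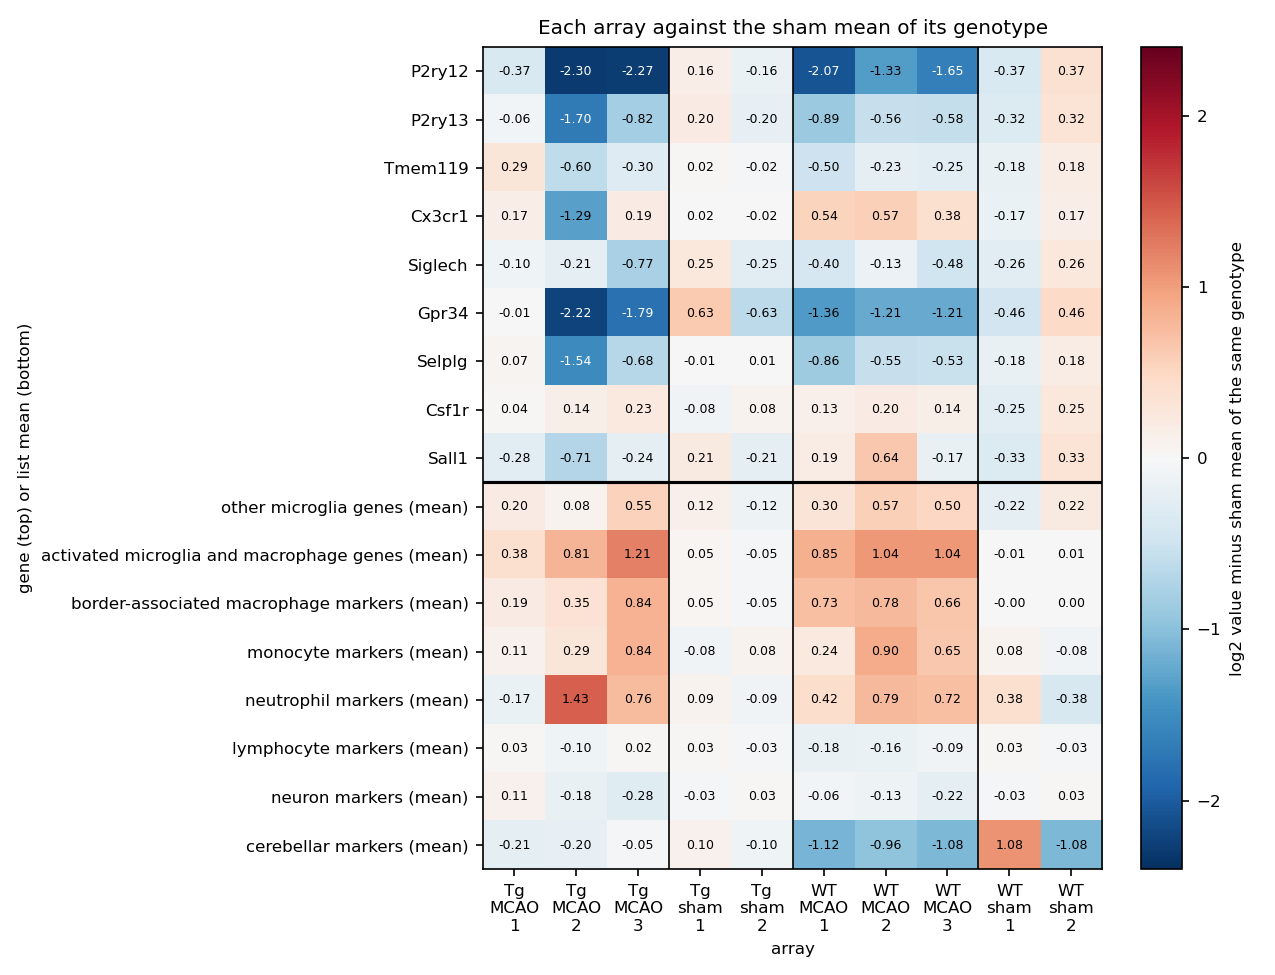
Each array's log2 value minus the sham mean of its genotype, for the 9 genes (above the line) and for the means of 8 other gene lists (below it), with MCAO arrays left of sham arrays in each genotype (Tg stands for Hsp72Tg). P2ry12 is at -2.30 in Hsp72Tg MCAO 2 and -0.37 in Hsp72Tg MCAO 1, and the mean of activated microglia and macrophage genes is above 0 in all 6 MCAO arrays.

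Genes whose pattern was most like that of the members were sought over the 10 arrays by the root mean square difference between each gene's centred values and the median of the members' centred values. The 5 closest genes outside the set were Cyb561d2 (0.14), Grm8 (0.14), Dguok (0.15), Fn3k (0.15) and Higd1b (0.16), where the median over other genes was 0.45. Among the members Selplg (0.15) and P2ry13 (0.17) were closest to that median and P2ry12 (0.69) was farthest, since its differences were larger. All 5 outside genes were lowest in Hsp72Tg MCAO 2, as the members' median was, at -1.16. They were picked for closeness to that median, so their low value in that array follows from the choice.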

How the data were processed

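Gene expression was measured in 10 hemisphere samples of 4 groups. The authors deposited log2 expression values for every probe set, which the submitters' processing notes trace to RMA without naming a version or settings. Of 45101 probe sets, 34945 had 1 gene symbol, 932 had several and 9160 had none in the platform annotation, and 64 controls were left out. Each gene kept its brightest probe set on average, which gave 18193 genes.

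Group means over all arrays were fitted with limma 3.58.1 (R 4.3.3; lmFit, contrasts.fit, eBayes), with Benjamini-Hochberg adjustment over all genes at 0.05, two-sided. Intervals are 95%. The fit was tested on simulated data. No detection calls were used, and the number of arrays limits the precision.

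The members and the 13 other lists were chosen with earlier results of these data known, as was the choice of arrays to leave out. The text names all members, with each list's passing genes or otherwise the 3 largest changes. It also names the 5 most similar genes, and Hspa1a, Hspa1b and Gabra6 as checks of the labels. Some further list genes are named, mostly with small or opposite differences. Alternatives were the replicate block, arrays of the groups compared only, trend and robust options, array weights, quantile normalization, median centring, the mean over probe sets, a filter on dim genes (mean at or under the lower quartile of all genes) and leaving out arrays.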

Additional observations from a re-analysis of the deposited data

How the results depend on the processing

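With all 10 arrays 0 of 9 genes passed in each of the 6 comparisons, and 0 passed with the replicate block, trend and robust options, quantile normalization, median centring or the mean over probe sets. The count of passing genes rose to 2 over both genotypes and 1 in WT with array weights, to 1 over both genotypes with dim genes left out and to 3 in WT with WT arrays alone. With WT sham 1 and Hsp72Tg MCAO 1 both out it was 5 over both genotypes, 1 in WT and 4 in Hsp72Tg. Leaving out 1 array at a time gave 0 to 5 over both genotypes, 0 to 1 in WT and 0 to 4 in Hsp72Tg, and each highest count came from leaving out Hsp72Tg MCAO 1. The differences of P2ry12, P2ry13, Gpr34, Selplg, Tmem119 and Siglech after MCAO stayed below 0 in each comparison with sham under the alternatives run. The sign changes below were of differences that did not pass with all arrays, and their cause was not tested.

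Same-numbered replicates correlated between -0.16 and 0.25 in their deviations from group means, and differently numbered ones between -0.23 and 0.13. In groups of 2 arrays the deviations are mirror images, so these values cannot decide whether equal numbers share a day or batch. With the replicate block Cx3cr1 over both genotypes was -0.0066, P2ry12 was -1.52 there and no member's call changed. Over both genotypes 17 of all genes then passed as higher, against 192 with all arrays and no block, and of the 13 other lists 1 regulator passed. With WT sham 1 and Hsp72Tg MCAO 1 out, Cx3cr1 was -0.113 over both genotypes, and in WT Csf1r was -0.0952 and Sall1 -0.115. The difference of the MCAO changes was then -0.2327 for P2ry12, 0.1105 for Siglech and 0.2775 for Csf1r. Hsp72Tg minus WT after MCAO was then -0.3968 for P2ry12, -0.2163 for Tmem119, -0.4092 for Gpr34 and 0.0007 for Csf1r. After sham surgery it was then -0.1641 for P2ry12, -0.1004 for Siglech, -0.123 for Gpr34 and -0.1025 for Sall1. With array weights the difference of the MCAO changes of P2ry12 was -0.2554, and Hsp72Tg minus WT after MCAO was -0.0475 for P2ry12 and -0.0466 for Tmem119. Quantile normalization gave 0.0031 for the difference of the MCAO changes of Csf1r and 0.0026 for P2ry13 between genotypes after sham surgery. Median centring gave 0.0286 for Siglech and 0.026 for Csf1r in the difference of the MCAO changes, and 0.0142 for Csf1r between genotypes after MCAO. The mean over probe sets gave 0.0086 for Csf1r between genotypes after sham surgery.

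Leaving out 1 array at a time, Cx3cr1 ran from -0.0345 to 0.3361 and Sall1 from -0.2614 to 0.0702 over both genotypes. In WT Csf1r ran from -0.0952 to 0.4104 and Sall1 from -0.115 to 0.5482, and in Hsp72Tg Cx3cr1 ran from -0.5646 to 0.1766. For the difference of the MCAO changes the median over members ran from -0.5855 to 0.2347, P2ry12 from -0.6047 to 0.4055, P2ry13 from -0.5855 to 0.2347, Tmem119 from -0.1297 to 0.3163, Siglech from -0.2836 to 0.2405, Gpr34 from -0.7456 to 0.5493, Selplg from -0.4625 to 0.3417 and Csf1r from -0.2769 to 0.2286. Between genotypes after MCAO, P2ry12 ran from -0.3968 to 0.5682, P2ry13 from -0.6043 to 0.2159, Tmem119 from -0.2163 to 0.2298, Cx3cr1 from -0.7313 to 0.0098, Gpr34 from -0.4092 to 0.6966, Selplg from -0.5233 to 0.2808 and Csf1r from -0.0951 to 0.0007. Between genotypes after sham surgery, P2ry12 ran from -0.1641 to 0.5799, P2ry13 from -0.3415 to 0.3039, Tmem119 from -0.2707 to 0.0975, Siglech from -0.1004 to 0.4236, Gpr34 from -0.2932 to 0.966, Selplg from -0.2393 to 0.1176, Csf1r from -0.2768 to 0.2288 and Sall1 from -0.1025 to 0.5608.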
